A study of Mus musculus with 4 samples.

Results

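The calcium and calmodulin dependent kinases (CaM kinases) are the enzymes that turn a rise of cell calcium into protein phosphorylation, and 10 of their genes were followed here by gene symbol out of the 24015 genes counted. They are the activating kinases Camkk1 and Camkk2, the CaM kinase I genes Camk1, Camk1d and Camk1g, the CaM kinase IV gene Camk4, and the CaM kinase II genes Camk2a, Camk2b, Camk2d and Camk2g. All 10 were found and all 10 passed the filter on low counts, with between 499 and 20859 reads per gene and library. The libraries came from the cerebella of C57BL/6N mice at postnatal day 140 to 150. The HT group was 2 mice heterozygous for an Arid1b knockout, 1 male and 1 female, and the WT group was 2 wild-type littermates, again 1 male and 1 female. No other allele or treatment is named in the labels, and the deleted part of Arid1b, a DNA-binding subunit of the BAF chromatin remodelling complex, is not stated in the sources used here. Each library has its own combination of genotype and sex, so the 4 come from different mice. Whether a library pools animals is not stated in the sources used here.

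Calcium entering a neuron binds calmodulin, and loaded calmodulin opens the CaM kinases. The CaM kinase kinases then phosphorylate the activation loop of CaM kinases I and IV, whereas CaM kinase II phosphorylates itself between neighbouring subunits of a ring-shaped holoenzyme and so stays active after calcium has dropped. In the cerebellum CaM kinase IV is known from the nuclei of granule cells, where it phosphorylates the transcription factor CREB, the alpha form of CaM kinase II from Purkinje cells, and its beta form, which binds actin, from both cell types.

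Totals ran from 15950899 to 20616219 counts per library. Arid1b stood at 52.9 CPM (a gene's reads relative to all counted reads of the library) in the male HT and 55.8 CPM in the female HT library, against 69.9 CPM in the male WT and 71.0 CPM in the female WT library. Its log2 fold change was -0.37 ± 0.11 (SE; edgeR quasi-likelihood test, adjusted p = 0.243). All 22 granule cell markers and all 22 Purkinje cell markers were detected and tested, while the forebrain genes Emx1 and Fezf2 did not pass the low-count filter.

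Per kb of the longest annotated transcript, Camk2b had the highest level of the family and Camk4 the second. Camk2b had 191.0 and 210.0 CPM per kb in the male and female HT, against 222.7 and 245.3 CPM per kb in the male and female WT libraries. Camk4 averaged 114.5 ± 7.47 CPM per kb in HT and 172.7 ± 4.10 in WT cerebella (SD, n = 2 each, as for the averages that follow). Camk2g came next with 84.8 ± 0.680 CPM per kb in HT and 74.4 ± 8.39 in WT, and then Camkk2 with 41.0 ± 0.791 in HT and 50.3 ± 0.0284 in WT. The libraries of each of these genes did not overlap those of the next in the order. Camk1, Camkk1, Camk2a and Camk2d followed between 25.1 and 35.4 CPM per kb over all libraries, and neighbours in that run overlapped. Camk1d and Camk1g were lowest, between 12.2 and 15.9 CPM per kb, and overlapped each other. With coding length in place of transcript length the leading 4 genes and the last, Camk1g, kept their places, while the order of the other 5 changed.

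Between the genotypes no member passed the test over all genes, but several lay apart from WT in both sexes. Camk4 was the furthest, at 0.664-fold of the WT level, with Camkk2 at 0.816-fold and Camk2b at 0.858-fold. On the other side Camk1g was at 1.26-fold, Camk2g at 1.15-fold, Camkk1 at 1.13-fold and Camk1 at 1.11-fold. At an adjusted p under 0.05 the quasi-likelihood test of edgeR took in 0 of the 10 members, where 0.0198% of all tested genes did. At an unadjusted p under 0.05 the test took in 4 members, Camk4, Camkk2 and Camk2b on the lower side and Camk1g on the higher, against 11.7% of all 15117 tested genes (6.46% lower and 5.22% higher). DESeq2 called 1 member, Camk4, where it called 0.218% of all 15117 tested genes, and limma-voom called 0. DESeq2 gave no adjusted p for Camk1g, which counts as not called, as does any other gene without one. The CPM of HT and WT libraries did not overlap for 7 members, 4 higher and 3 lower, against 44.7% of all tested genes (22.1% higher and 22.6% lower). The median log2 fold change over the members was 0.09, with 6 above 0 and 4 below, and over all tested genes it was 0.00630, with 7723 above 0 and 7394 below. Within the sexes the members' median log2 ratio of HT over WT changed sign, at -0.16 between the males and 0.15 between the females. The size of the difference, as the median of its absolute value on the log2 scale, was 0.186 over the members and 0.148 over all tested genes.

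**Figure D1:**
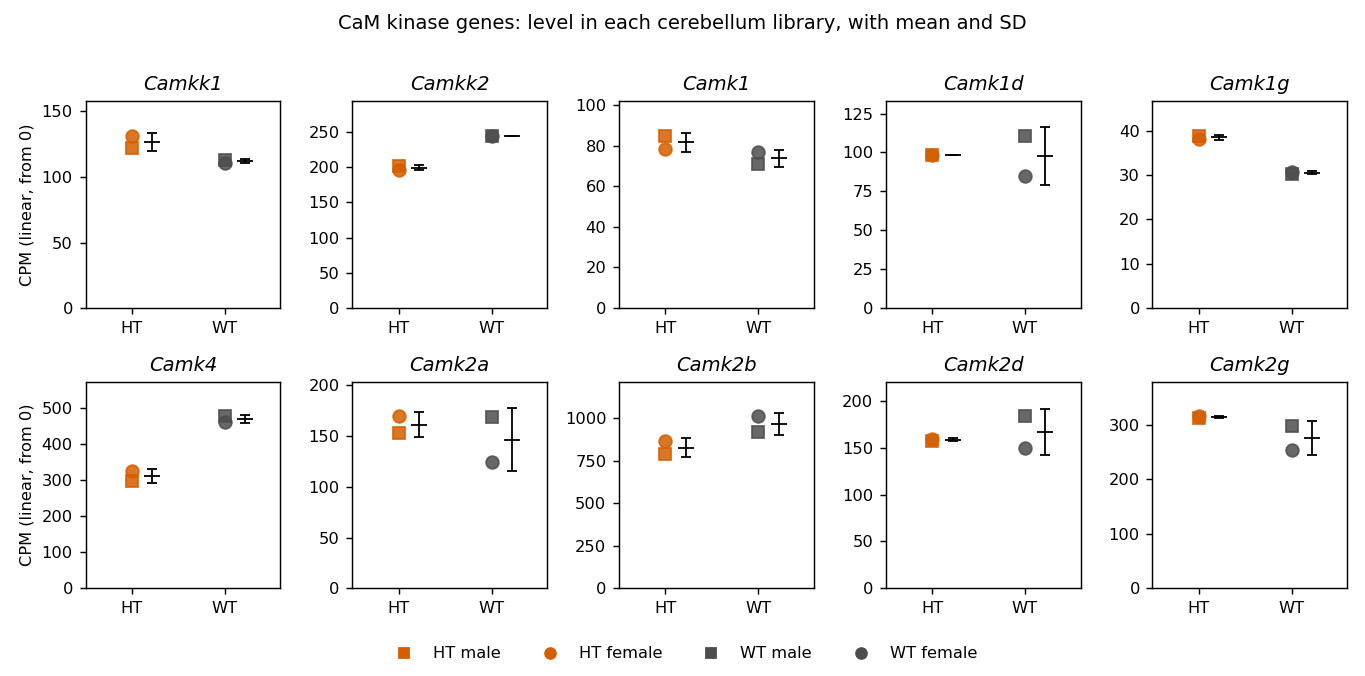
Level of each CaM kinase gene in CPM (linear axis from 0) in the 2 HT libraries (orange) and the 2 WT libraries (grey), squares for males and circles for females, with the mean and SD of each genotype beside them. HT and WT do not overlap for Camk4, Camkk2, Camk2b, Camk1g, Camk2g, Camkk1 and Camk1, and they overlap for Camk1d, Camk2a and Camk2d.

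The sequences before the starts of these genes differ in base composition from member to member. RefSeq's table of promoters (GRCm38.p6) held 8 windows for 7 members, namely Camk1, Camk1d with 2 starts, Camk1g, Camk2b, Camk2d, Camkk1 and Camkk2. The 250 bases before the annotated start are printed for the members outside the overlap at an unadjusted p under 0.05 that have a window (Camk2b, Camkk2 and Camk1g) and for Camkk1, the counterpart of Camkk2. Capitals mark the GC box, GGGCGG or its complement CCGCCC, and the half-site of the cAMP response element to which CREB binds, TGACG or its complement CGTCA. The full element TGACGTCA contains both half-sites.
Camk2b: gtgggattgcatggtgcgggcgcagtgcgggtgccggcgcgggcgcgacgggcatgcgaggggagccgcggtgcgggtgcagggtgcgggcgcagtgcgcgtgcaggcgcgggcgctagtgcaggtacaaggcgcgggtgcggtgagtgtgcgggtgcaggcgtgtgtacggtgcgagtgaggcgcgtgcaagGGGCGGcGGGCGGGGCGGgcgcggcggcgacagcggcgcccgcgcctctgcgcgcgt
Camkk2: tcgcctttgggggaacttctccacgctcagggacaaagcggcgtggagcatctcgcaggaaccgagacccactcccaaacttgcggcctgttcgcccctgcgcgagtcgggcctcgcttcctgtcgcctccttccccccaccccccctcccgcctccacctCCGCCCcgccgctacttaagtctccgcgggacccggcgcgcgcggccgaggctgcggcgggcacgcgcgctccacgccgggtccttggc
Camkk1: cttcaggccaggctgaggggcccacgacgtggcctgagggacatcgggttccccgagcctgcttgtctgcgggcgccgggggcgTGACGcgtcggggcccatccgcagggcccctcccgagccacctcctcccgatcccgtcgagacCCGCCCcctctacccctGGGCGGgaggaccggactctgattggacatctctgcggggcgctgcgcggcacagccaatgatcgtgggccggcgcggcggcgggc
Camk1g: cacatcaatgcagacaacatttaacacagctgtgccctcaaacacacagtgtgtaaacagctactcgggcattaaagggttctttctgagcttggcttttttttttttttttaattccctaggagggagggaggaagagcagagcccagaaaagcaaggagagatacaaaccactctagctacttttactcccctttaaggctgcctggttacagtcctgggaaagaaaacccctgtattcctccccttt
These are chr11:6065749-6065998 on the minus strand, chr5:122779411-122779660 on the minus strand, chr11:73018738-73018987 on the plus strand and chr1:193370283-193370532 on the minus strand. The starts are those of RefSeq and can differ from those of GENCODE, which gave the lengths here. In GENCODE Camk2b, on the minus strand, extends to base 6066362, so its whole window lies inside the gene. The windows of Camk2d and of 1 Camk1d start also lie inside the GENCODE gene, and those of Camk1 and Camk1g reach into it. The Camk2b window had 44 CpG dinucleotides and a G+C content of 78.4%, Camkk2 had 32 and 72.4%, and Camkk1 29 and 74.4%. The Camk1g window had 1 CpG and a G+C content of 44.8%, where the median over all 32851 windows was 6 CpGs and 52.4%. Camk2b held 3 GC boxes, those nearest the start overlapping, 57, 50 and 45 bases before the start, Camkk1 held 2 and Camkk2 held 1. Of the 8 member windows 6 held a GC box, against 32.7% of all windows, and 2 held the half-site, those of Camkk1 (166 bases before the start) and Camk1 (185 bases before the start), against 17.8% of all windows. No member window held the full element, found in 1.55% of all windows, or TATAAA (either strand), found in 12.4%. These matches describe the letters of the windows only.

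The activating kinases lay on opposite sides. Camkk1, which is found mostly in brain, stood at 121.7 CPM in the male HT and 131.4 CPM in the female HT library, against 113.2 CPM in the male WT and 110.9 CPM in the female WT library. Both HT libraries were above both WT libraries. The log2 fold change of Camkk1 was 0.18 ± 0.10 (SE; edgeR quasi-likelihood test, adjusted p = 0.549). Camkk2, which besides CaM kinases I and IV also phosphorylates the energy sensor AMPK, stood at 201.9 CPM in the male HT and 196.4 CPM in the female HT library, against 244.3 CPM in the male WT and 244.5 CPM in the female WT library. The groups did not overlap, and the WT pair differed by little beside the distance to the HT pair. Camkk2 had a log2 fold change of -0.29 ± 0.10 (SE; edgeR quasi-likelihood test, unadjusted p = 0.0141, adjusted p = 0.297), with -0.28 between the males and -0.32 between the females. With 1 library left out in turn it ran from -0.31 to -0.28, and the adjusted p was 1.0 without the male HT and 0.949 without the female HT library, against 0.0153 without the male WT and 0.0238 without the female WT library. In such fits only the genotype that keeps both libraries sets the spread. The ratio of Camkk2 to Camkk1, per kb and formed after the values were seen, was 1.27 in the male HT and 1.14 in the female HT library, against 1.65 in the male WT and 1.69 in the female WT library. The activating kinase transcripts were thus nearer to equal in both heterozygotes.

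CaM kinase I, which acts on axon and dendrite growth, is encoded here by 3 genes, and none was lower in both sexes. Camk1g, whose product is anchored to membranes by lipid, stood at 38.8 CPM in the male HT and 38.1 CPM in the female HT library, against 30.3 CPM in the male WT and 30.8 CPM in the female WT library. Each pair was tight and the groups did not overlap. The log2 fold change of Camk1g was 0.34 ± 0.13 (SE; edgeR quasi-likelihood test, unadjusted p = 0.0274, adjusted p = 0.362), and it ran from 0.32 to 0.34 with 1 library left out in turn. Camk1 stood at 84.9 CPM in the male HT and 78.4 CPM in the female HT library, against 70.7 CPM in the male WT and 76.6 CPM in the female WT library, so that the females were almost level. Camk1 had a log2 fold change of 0.15 ± 0.11 (SE; edgeR quasi-likelihood test, adjusted p = 0.654). Exons of Camk1 overlap those of Ogg1, a DNA repair gene on the other strand, and Ogg1 had 146 and 106 counts in the HT and 100 and 105 in the WT libraries beside 1164 to 1722 for Camk1. Camk1d stood at 98.3 CPM in the male HT and 98.4 CPM in the female HT library, between the 110.7 CPM of the male WT and the 84.7 CPM of the female WT library. Camk1d had a log2 fold change of 0.02 ± 0.12 (SE; edgeR quasi-likelihood test, adjusted p = 0.964). Summed per kb, the CaM kinase I genes gave 65.2 CPM per kb in the male HT and 62.3 in the female HT library, against 57.7 in the male WT and 56.6 in the female WT library.

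CaM kinase IV showed the widest difference of the family. Camk4 stood at 296.7 CPM in the male HT and 325.4 CPM in the female HT library, against 477.0 CPM in the male WT and 461.3 CPM in the female WT library. Both HT libraries, with 6020 and 5191 reads of Camk4, were below both WT libraries, with 7849 and 9510. The mean was 311.1 ± 20.3 CPM in HT and 469.2 ± 11.1 CPM in WT (SD, n = 2 each), and the log2 fold change -0.59 ± 0.10 (SE; edgeR quasi-likelihood test, unadjusted p = 0.000124, adjusted p = 0.13). It was -0.68 between the males and -0.50 between the females. In order of p, Camk4 ranked 13 among the 15117 tested genes. Its adjusted p was 0.00341 with DESeq2, 0.0488 in edgeR with library totals in place of TMM scaling, and 4.22e-05 in edgeR with no low-count filter, but 0.112 with limma-voom, 0.0869 in edgeR with DESeq2's size factors, 0.174 with at least 1 CPM in 2 libraries and 0.307 without the sex term. With no low-count filter edgeR called 553 of all genes at an adjusted p under 0.05, against 3 in the main fit. With 1 library left out in turn the log2 fold change of Camk4 ran from -0.67 to -0.52. Exons of 2310026I22Rik, on the other strand, overlap those of Camk4 in GENCODE. The deposited counts have no row under that symbol, and whether the counting used strand is not stated in the sources used here.

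**Figure D2:**
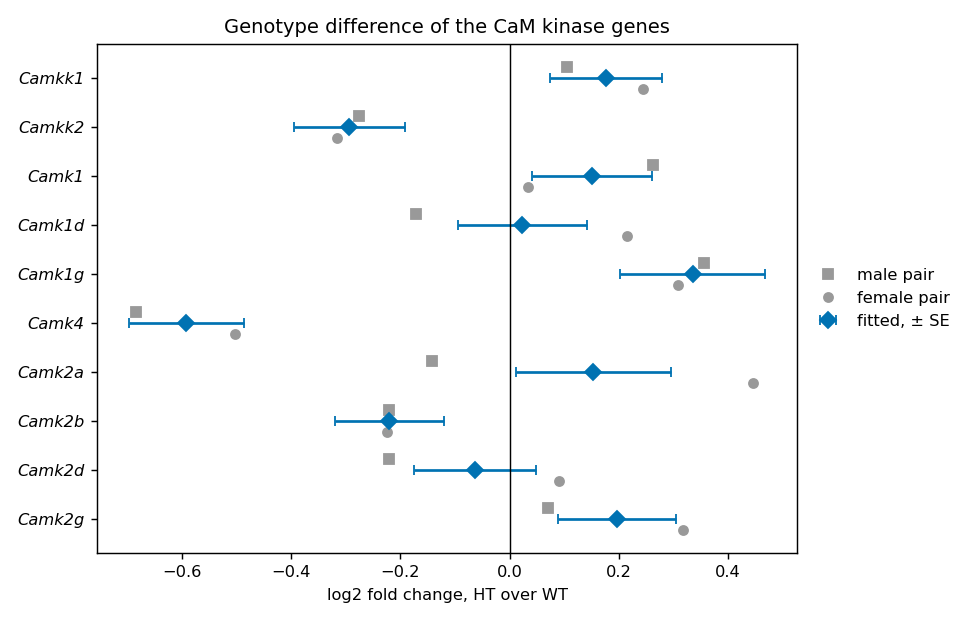
Fitted log2 fold change, HT over WT, of each CaM kinase gene with its SE (blue), and the log2 ratio of the male pair (grey squares) and of the female pair (grey circles). Camk4 lies at -0.59, Camkk2 at -0.29 and Camk2b at -0.22 with both sexes on the same side, and Camk1d, Camk2a and Camk2d have the sexes on opposite sides of 0.

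Markers of granule cells, in which Camk4 is known, also lay lower in HT. The 22 listed granule cell markers, which do not include Camk4, summed to 5777 CPM in the male HT and 6390 CPM in the female HT library, against 7444 CPM in the male WT and 8664 CPM in the female WT library. Their median log2 fold change was -0.43. Of the 22, 21 were lower and 1 higher in HT, and no marker was at 0 in every library. Fat2 and Gabra6, markers named after their values were seen, had log2 fold changes of -0.58 and -0.51. Camk4 had 51.4 counts per 1000 granule marker counts in the male HT and 50.9 in the female HT library, against 64.1 in the male WT and 53.2 in the female WT library. In bulk tissue fewer granule cells, less RNA per granule cell and a larger part of other tissue in the sample cannot be told apart. The part of this shift in the Camk4 difference was not tested. The 22 Purkinje cell markers summed to 8178 and 7689 CPM in the male and female HT, against 8611 and 10110 CPM in the male and female WT libraries, with 19 lower and a median of -0.30. The 16 endothelial and mural markers were all lower in HT, with a median of -0.50, and summed to 382.0 and 343.2 CPM in the male and female HT, against 396.7 and 581.0 CPM in the male and female WT libraries. Of the 16 oligodendrocyte markers 15 were higher in HT, with a median of 0.16, and the choroid plexus list, 12 genes, had 11 on the higher side and a median of 0.61. The choroid plexus sum was 2707 and 1561 CPM in the male and female HT, against 1479 and 1468 CPM in the male and female WT libraries, so that the male HT library stood apart. The part of the shifts in these other cell types in the members' values was not tested.

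Within CaM kinase II, Camk2b was a smaller and Camk2g a larger share of the transcripts in both HT libraries. The summed level of the 4 genes was 334.6 CPM per kb in the male HT and 358.3 in the female HT library, against 370.1 in the male WT and 365.9 in the female WT library. Camk2b, the actin-binding beta form, made up 57.1% of that sum in the male HT and 58.6% in the female HT library, against 60.2% in the male WT and 67.0% in the female WT library. Camk2g, the gamma form, which carries calmodulin to the nucleus of neurons, made up 25.2% in the male HT and 23.8% in the female HT library, against 21.7% in the male WT and 18.7% in the female WT library. HT minus WT, the share of Camk2b differed by -3.07 percentage points in males and -8.43 in females, -5.75 on average. The share of Camk2g differed by 3.51 points in males and 5.10 in females, 4.30 on average. The alpha form Camk2a took 9.18% and 9.53% in the male and female HT, against 9.17% and 6.85% in the male and female WT libraries. The delta form Camk2d took 8.52% and 8.05% in the male and female HT, against 8.98% and 7.40% in the male and female WT libraries. These shares are descriptions with no test.

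**Figure D3:**
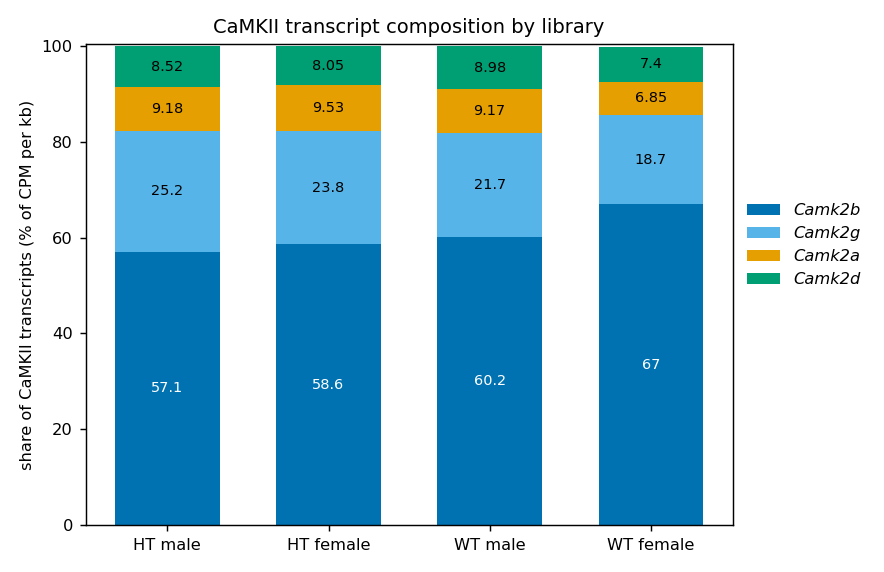
Stacked bars of the share of Camk2b, Camk2g, Camk2a and Camk2d in the summed CaM kinase II level (percent of CPM per kb, axis from 0) in each library. Camk2b takes 57.1% and 58.6% in the HT libraries and 60.2% and 67.0% in the WT libraries, and Camk2g 25.2% and 23.8% against 21.7% and 18.7%.

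Gene by gene, Camk2b stood at 787.9 CPM in the male HT and 866.2 CPM in the female HT library, against 918.5 CPM in the male WT and 1012 CPM in the female WT library. The groups did not overlap. The log2 fold change of Camk2b was -0.22 ± 0.10 (SE; edgeR quasi-likelihood test, unadjusted p = 0.0485, adjusted p = 0.425), with -0.22 between the males and -0.22 between the females. With 1 library left out in turn the log2 fold change of Camk2b ran from -0.30 to -0.15. Camk2g stood at 312.2 CPM in the male HT and 315.8 CPM in the female HT library, against 297.3 CPM in the male WT and 253.4 CPM in the female WT library. Both HT libraries were higher, though the male pair was close. Camk2g had a log2 fold change of 0.20 ± 0.11 (SE; edgeR quasi-likelihood test, adjusted p = 0.519), 0.08 without the female WT library and 0.31 without the male WT library. Camk2d stood at 157.5 CPM in the male HT and 159.3 CPM in the female HT library, between the 183.6 CPM of the male WT and the 149.6 CPM of the female WT library, with a log2 fold change of -0.06 ± 0.11 (SE; edgeR quasi-likelihood test, adjusted p = 0.881).

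Camk2a stood at 152.7 CPM in the male HT and 169.7 CPM in the female HT library, against 168.6 CPM in the male WT and 124.6 CPM in the female WT library. The female WT library was the low one, and the other 3 lay close together. The log2 fold change of Camk2a was 0.15 ± 0.14 (SE; edgeR quasi-likelihood test, adjusted p = 0.741), -0.07 without the female WT library and 0.37 without the male WT library. Listed markers of forebrain excitatory neurons summed to 152.0 and 152.5 CPM in the male and female HT, against 136.7 and 78.7 CPM in the male and female WT libraries, and those of brainstem and midbrain neurons to 452.3 and 430.1 CPM in HT, against 371.5 and 184.3 CPM in WT. Of the 10 forebrain markers 7 were tested, with 4 higher and 3 lower in HT, and of the 17 brainstem and midbrain markers 13 were higher and 4 lower. None of either list was at 0 in every library. The female WT library was lowest for both sums as it was for Camk2a, and the part of other tissue in the Camk2a values was not tested.

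**Figure D4:**
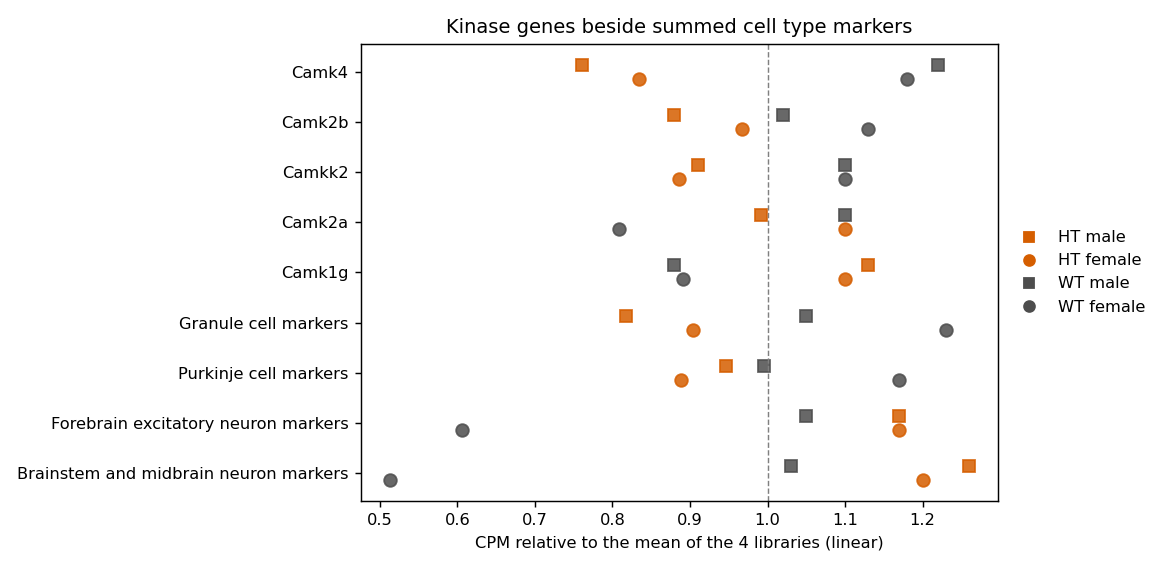
CPM of 5 CaM kinase genes and summed CPM of 4 marker lists, each relative to its mean over the 4 libraries (linear axis), HT in orange and WT in grey, squares for males and circles for females. Camk4 lies at 0.761 and 0.834 in HT and 1.22 and 1.18 in WT, granule markers at 0.817 and 0.904 in HT and 1.05 and 1.23 in WT, and the female WT library is lowest for Camk2a (0.809), forebrain markers (0.606) and brainstem markers (0.513).

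Between males and females no member passed the adjusted threshold, where 0.0595% of all tested genes did, and 0 members were under an unadjusted p of 0.05, against 3.82% of all genes (edgeR quasi-likelihood test). DESeq2 and limma-voom also called 0 members. The widest sex differences were 0.19 ± 0.12 for Camk1d, 0.14 ± 0.14 for Camk2a and 0.14 ± 0.11 for Camk2d (log2 fold change, male over female, ± SE).

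The partners of the kinases were followed in lists. In edgeR 0 of their genes passed the adjusted threshold, so the counts that follow are at an unadjusted p under 0.05. Of all tested genes 5.22% were higher and 6.46% lower past that p. Among calmodulin and proteins that bind it, 12 of 12 were tested, with 1 higher and 1 lower past that p and a median log2 fold change of 0.07. Marcks, an actin-binding protein that calmodulin pulls off the membrane, had -0.48 ± 0.11 (SE), Gap43, a growth cone protein, 0.29 ± 0.11 (SE), and Marcksl1, a relative of Marcks, 0.20 ± 0.13 (SE). With 1 library left out in turn Gap43 ran from 0.19 to 0.39 and Marcksl1 from 0.06 to 0.33. The calmodulin genes Calm2 and Calm3, named for their role, had log2 fold changes of -0.12 and 0.15. Among CaM kinase II inhibitors and kinase relatives 14 of 15 were tested, with 1 higher and 1 lower and a median of 0.07. Eef2k, the calmodulin-dependent kinase of elongation factor 2, had -0.31 ± 0.11 (SE), Pnck, a further CaM kinase I, 0.26 ± 0.11 (SE), and Dapk1, the death-associated kinase, 0.42 ± 0.19 (SE). With the male WT library left out Dapk1 was at 0.71 and with the female WT library left out at 0.13. The inhibitors Camk2n1 and Camk2n2, named for their role, had -0.05 and 0.10.

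Among the nuclear targets of CaM kinases IV and I, 19 of 20 were tested, with 0 higher and 6 lower at an unadjusted p under 0.05. Of all tested genes 5.22% were higher and 6.46% lower at that p. The median of the list was -0.13. Of the 19, 13 were lower and 6 higher in HT, against 7394 lower and 7723 higher among all tested genes. Rora, a nuclear receptor that is also in the Purkinje list, had -0.43 ± 0.10 (SE), Mef2a, a transcription factor released when CaM kinases phosphorylate class II deacetylases, -0.34 ± 0.10 (SE), and Creb1, the CREB gene, -0.34 ± 0.12 (SE). Creb1 stood at 47.1 CPM in the male HT and 48.5 CPM in the female HT library, against 62.4 CPM in the male WT and 58.6 CPM in the female WT library. It lay on the same side as Camk4, and a link between them was not tested. The median of this list was -0.25 between the males and -0.01 between the females.

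The remaining lists were centred near 0. In the AMPK pathway, which Camkk2 feeds, 14 of 14 were tested, with 0 higher and 0 lower past an unadjusted p of 0.05 and a median of 0.03. Its genes of smallest p were the regulatory subunits Prkag3 (0.72 ± 0.52, SE), at about 1 CPM, and Prkag1 (0.10 ± 0.11, SE), and the catalytic subunit Prkaa1 (0.14 ± 0.14, SE). Among phosphatases of the pathway 14 of 15 were tested, with 2 higher and 2 lower and a median of -0.03. Ppp1r1a, an inhibitor of protein phosphatase 1, had 0.41 ± 0.14 (SE), Ppp1cb, a catalytic subunit of that phosphatase, -0.30 ± 0.11 (SE), and Ppm1e, a phosphatase that removes the phosphates of CaM kinases, 0.32 ± 0.12 (SE). Both rested on the WT libraries: without the male WT library Ppm1e was at 0.59 and Ppp1cb at -0.10, and without the female WT library Ppm1e was at 0.0498 and Ppp1cb at -0.48. Among synaptic substrates and partners of CaM kinase II 20 of 20 were tested, with 1 higher and 4 lower and a median of -0.03. Gria4, an AMPA receptor subunit, had -0.38 ± 0.10 (SE), Shank3, a postsynaptic scaffold, -0.33 ± 0.10 (SE), and Cacnb1, a calcium channel subunit, 0.34 ± 0.12 (SE). With 1 library left out in turn Gria4 ran from -0.52 to -0.24 and Cacnb1 from 0.20 to 0.49, nearest 0 without the female WT library, and Shank3 from -0.50 to -0.19, nearest 0 without the male HT library.

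**Figure D5:**
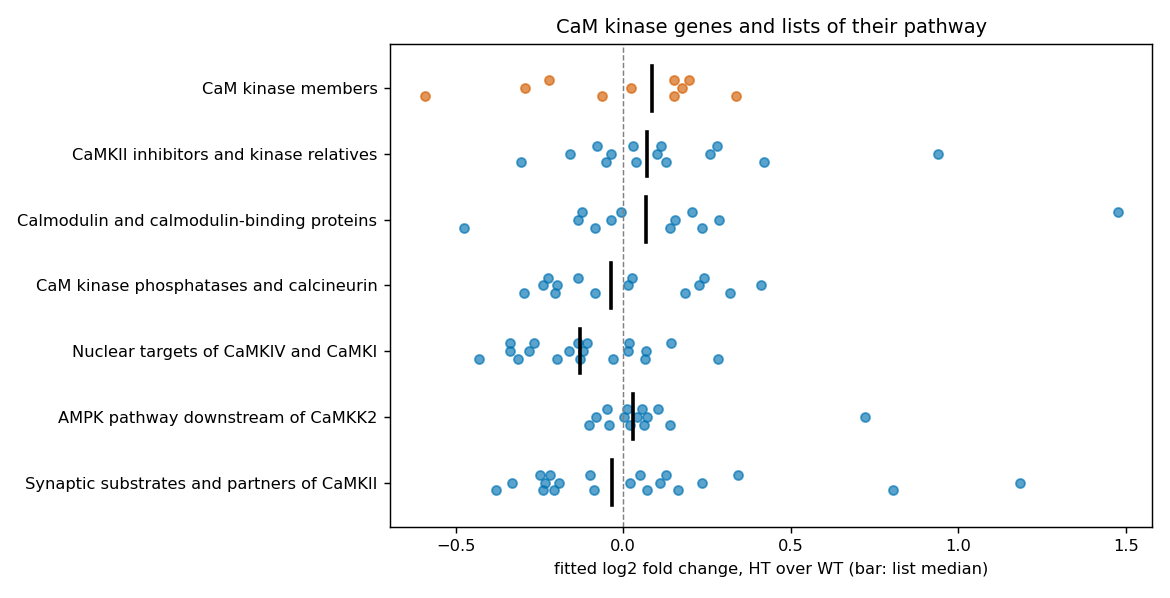
Fitted log2 fold change, HT over WT, of each tested CaM kinase gene (orange) and of each tested gene of 6 pathway lists (blue), with the list median as a black bar. The nuclear targets have the lowest median (-0.13) and the members 0.09, and single genes spread on both sides of 0 in every list.

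The genes whose level over the 4 libraries was most like that of Camk4 were Spaca6, Smg1, Prpf39, 1700094D03Rik and Col19a1, with a Euclidean distance of 0.0618 to 0.0907 between centred log2 CPM profiles. Among 10434 genes with a mean of at least 10 CPM, 64 lay within 0.2 of Camk4. For Camk2a they included Cdh2, A230056P14Rik, Astn1 and Atf7ip, at distances of up to 0.0501, with 624 genes within 0.2. With 4 libraries such likeness is a description only.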

How the data were processed

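Per the labels' protocols, stranded mRNA libraries of 4 cerebella shared 1 sequencing lane (single-end, read length 100). The authors deposited raw counts per gene symbol. The submitters' processing notes name STAR, featureCounts, FastQC, edgeR and build mm9. Versions, annotation and the use of strand are not stated in the sources used here.

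Genes were kept with filterByExpr by genotype (15117 of 24015, holding 99.95% of counts) and scaled by TMM. Genotype was tested in edgeR 4.0.16 (R 4.3.3) with a robust quasi-likelihood model holding sex and genotype, which leaves 1 residual degree of freedom and borrows spread across genes. P-values are two-sided, and Benjamini-Hochberg adjustment ran over every tested gene. SE is the size of the log2 fold change divided by the square root of F. Within-sex ratios used a prior count of 2. A count of 3 equals 0.146 to 0.188 CPM. Lengths came from GENCODE M21 (GRCm38), the longest transcript of each gene, so levels per kb are approximate for counts made on mm9.

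Alternatives were DESeq2 1.42.0, limma-voom (limma 3.58.1), other scalings and filters, an adjusted p of 0.1, no sex term, other lengths and prior counts, and leaving out each library with genotype as the only term. The members, lists and tests were chosen with earlier results of these data known. Named genes were Arid1b, the members, the 3 genes of smallest p per pathway list, and the 5 nearest patterns to Camk4 and Camk2a. Others are marked in the text. Some items that these rules name are not reported here.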

Additional observations from a re-analysis of the deposited data

Results flagged for a closer look

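Camk1d, Camk2a, Camk2d and Prkaa1 drew attention because HT stood on opposite sides of WT in the males and the females. The log2 ratio of HT over WT was -0.17 in males and 0.21 in females for Camk1d, -0.14 in males and 0.45 in females for Camk2a, -0.22 in males and 0.0907 in females for Camk2d, and -0.0448 in males and 0.32 in females for Prkaa1. Each ratio compares 1 library with 1 library, and the difference between the sexes was not tested. The female WT library was below both HT libraries for all 4 genes, and the male WT library was above both for Camk1d, Camk2d and Prkaa1 and between them for Camk2a.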

How the results depend on the processing

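The labels give no replicate numbers, and the libraries were matched by sex only. With 1 HT and 1 WT library per sex and sex as a term, the fit compared the genotypes within sex. The count of members called, 0, was 1 (Camk4) with DESeq2, with library totals and with no low-count filter, 0 under the other settings of tool, scaling, filter, sex term and threshold, and 0 to 6 with 1 library left out, 6 without the male WT and 2 without the female WT library. Over all genes the count of 3 was 33 with DESeq2, 7 with its size factors, 13 with library totals, 553 with no filter, 0 with at least 1 CPM in 2 libraries, 0 without the sex term, 7 at an adjusted p of 0.1, and 0 to 2730 with 1 library left out (658 without the female WT library). With 1 library left out only the genotype that keeps 2 libraries sets the spread, and the lone library is assumed to vary like it. The cause of these shifts was not tested.

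Among the members, the log2 fold changes of Camk1d, Camk2a and Camk2d turned with 1 library left out: they ran from -0.17 to 0.22, from -0.0664 to 0.37 and from -0.21 to 0.0841, and Prkaa1 ran from -0.0780 to 0.36. The other 7 members kept their direction in each setting run. The sex difference of Camk1, 0.000351, was -0.00802 with DESeq2, -0.00786 with its size factors, -0.000216 with library totals and -0.00183 with no filter, and that of Camk1g, 0.00449, was -0.00383 with DESeq2 and -0.00371 with its size factors.

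With 1 library left out, list medians ran from 0.0373 to 0.133 for CaM kinase II inhibitors and relatives, 0.0248 to 0.0713 for calmodulin and its binders, -0.00758 to 0.0654 for the AMPK pathway, -0.063 to 0.0369 for synaptic partners, -0.0729 to -0.0133 for phosphatases and -0.191 to -0.042 for nuclear targets. The shares themselves depend on the length used: by coding length Camk2b took 50.5% and 51.9% in the male and female HT, against 53.2% and 60.7% in the male and female WT libraries. The HT minus WT difference in the share of Camk2b was -5.72 points by coding length and -5.55 with no length, and that of Camk2g 3.84 and 3.81. A gene with no count could still be present at up to 0.188 CPM, a limit that covers counting error only.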

Other observations

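Some relatives and partners of CaM kinase II were low in the female WT library, as were Camk2a and the summed forebrain and brainstem markers. These genes were named after their values were seen, and the part of other tissue in them was not tested. The inhibitor Camk2n1 was nearer to level. It stood at 347.9 and 337.8 CPM in the male and female HT, against 379.8 and 332.5 CPM in the male and female WT libraries. Camkv, a kinase-like calmodulin-binding protein of synapses, stood at 61.1 CPM in the male HT and 66.6 CPM in the female HT library, against 52.8 CPM in the male WT and 20.3 CPM in the female WT library. Nrgn, neurogranin, which holds calmodulin in dendritic spines, stood at 115.2 CPM in the male HT and 108.9 CPM in the female HT library, against 82.8 CPM in the male WT and 18.0 CPM in the female WT library. Grin2b, the NMDA receptor subunit that docks CaM kinase II, stood at 2.17 CPM in the male HT and 3.07 CPM in the female HT library, against 2.19 CPM in the male WT and 0.436 CPM in the female WT library.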
